A study of Arabidopsis thaliana with 2 samples.

Results

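The floral integrator and floral identity genes are the loci on which the flowering pathways of Arabidopsis thaliana converge. They were examined in a map of PRR5 (PSEUDO-RESPONSE REGULATOR 5) binding made by chromatin immunoprecipitation and sequencing (ChIP-seq). The 10 loci, of 27444 protein-coding genes on chromosomes 1 to 5, were FT, TSF, TFL1, SOC1, FLC, SVP, FLM, LFY, AP1 and FUL. A called region was taken to belong to a locus when its midpoint fell inside the gene or no more than 3 kb past an end, and 15 of the 8983 regions in the list did. Loci with no such region were counted as unbound in this list, which says nothing about weaker binding below what was called.

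There were 2 libraries, 1 in each of 2 groups: anti-GFP ChIP DNA and input DNA. The material of both was whole plants mutant for prr5 and carrying PRR5pro:FLAG-PRR5-GFP, a PRR5 protein with FLAG and GFP tags driven by the promoter of PRR5 itself. All plants were 18 days old, had grown on 2% sucrose with 12 h of light a day, and were labelled as taken 10 h after lights on. Each group had no second library here, so intervals below cover counting error only and differences between plants are not known. Chromatin of all cell types was mixed, so few cells bound strongly and many cells bound weakly cannot be told apart. The regions of the list held 5112270 reads, the depth of each library is unknown, and the file does not state whether the reads of a region are those of the ChIP alone. Positions are on TAIR9, the build of the list, and genes are placed and named with the RefSeq table of TAIR10.1, of which no coordinates are given. That table gives no strand, so sides of a gene are called by the numbering of the chromosome and not as upstream or downstream.

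In long days the clock output gene CO activates FT and its close relative TSF in the leaf vasculature, and their small proteins move to the shoot apex. There they act with the bZIP factor FD to turn on SOC1, AP1 and FUL, and LFY and AP1 then fix the identity of the floral meristem. FLC, SVP and FLM are MADS-box repressors that hold FT and SOC1 down, and TFL1, a relative of FT, keeps the shoot apex indeterminate. PRR5 is a repressor of the clock that binds DNA at many genes late in the day, and plants that lack PRR5 and its relatives flower late in long days.

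Of the 10 loci, 9 had at least 1 region within 3 kb (90%), where 46.7% of all protein-coding genes did. With regions whose false discovery rate (FDR, the authors' own value per region) was at most 5%, 7 loci had one (70%), against 34.2% of all protein-coding genes. Among the 2245 regions with the lowest FDR the count was 2 (20%), SVP and AP1, against 15.5%. The counts over all regions and at 5% were above the shares of all genes, and that among the best-supported regions was near it. The loci were long genes, with a median length of 3730 bp against 2080 bp for all protein-coding genes, and a longer gene can hold more centres. Among the 19340 protein-coding genes between the shortest and the longest locus (1373 to 6067 bp), 47.7% had a region and 36.2% one at 5% or less. This range takes in most protein-coding genes and does not match the lengths of the loci. How much of the count comes with gene length was therefore not tested. Within 1 kb in place of 3 kb, 8 loci (80%) had a region, against 28.0% of all genes.

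The regions were of ordinary width and carried few of the reads. Their median length was 152 bp (102 to 258 bp), against 150 bp over the list. They held 40 to 662 reads with a median of 246, against a median of 194 and a maximum of 26570 over the list. Only 1 of the 15, beside SVP, was above the upper quartile of the list, 616 reads. Together they held 4279 reads, 0.0837% of all reads in regions, for 0.167% of the regions. By reads, 8 of the 15 were above the median of the list, and by FDR 3 were among the 2245 best supported, 1 beside SVP and 2 beside AP1.

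**Figure D1:**
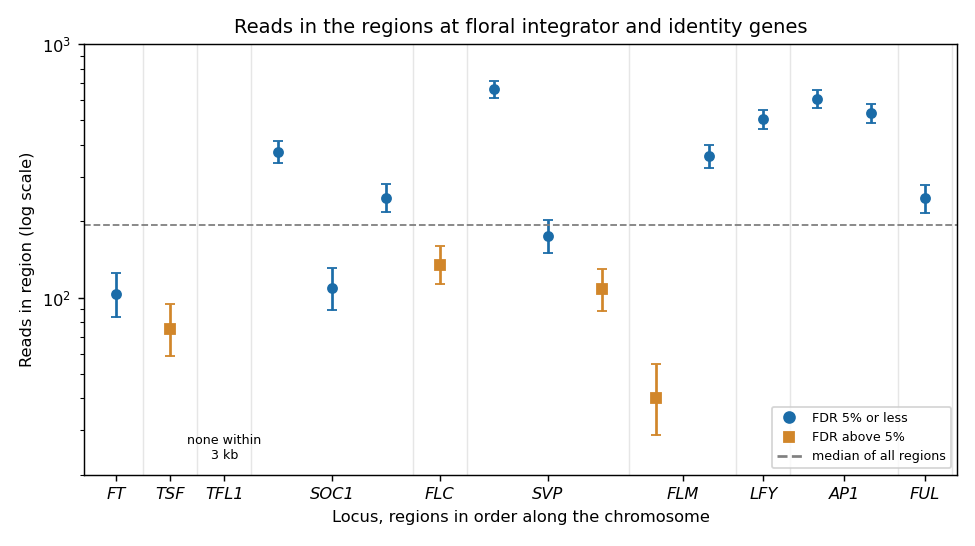
Reads in each of the 15 regions (log axis), grouped by locus and ordered along the chromosome within a locus. Points are the deposited reads with exact 95% Poisson intervals, blue circles are regions with an FDR of 5% or less, orange squares those above it, and the dashed line is the median of all 8983 regions, 194 reads. SVP, AP1 and LFY hold the highest values, from 504 to 662 reads, and TFL1 has no region within 3 kb.

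FT and TSF, which encode the mobile flowering signals, had regions with few reads, below the median of 194 over the list. FT (AT1G65480) had 1 region, on chromosome 1 from 24335257 to 24335437, with 103 reads (95% Poisson interval 84.1 to 125) and an FDR of 0.00332%. The region lay 1 to 2 kb beyond the higher-numbered end of the gene, and no other protein-coding gene was within 3 kb of it. TSF (AT4G20370) had 1 region inside the gene, 200 to 500 bp from its lower-numbered end, on chromosome 4 from 11001084 to 11001236, with 75 reads (59.0 to 94.0) at 6.63%, also with no other gene nearby. The read intervals of both overlap. By FDR they stood at rank 3821 (FT) and 5982 (TSF) of 8983, so FT passed 5% and TSF narrowly did not.

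TFL1 (AT5G03840), the relative of FT with the opposite action on flowering, was the 1 locus without a region. The closest one, on chromosome 5 from 1030529 to 1030668, lay 4 to 5 kb from it with 114 reads at an FDR of 14.5%. That region lay within 3 kb of AT5G03850 and of MLS (AT5G03860), which encodes malate synthase, and not of TFL1.

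SOC1 (AT2G45660, AGL20 in the table), the MADS-box integrator that acts after FT, had 3 regions, all outside the gene and all at an FDR under 5%. The first, on chromosome 2 from 18806791 to 18806928, held 376 reads (339 to 416) at 5.69e-06% and lay 500 bp to 1 kb beyond the lower-numbered end. It was nearer to AGL6 (AT2G45650), a MADS-box gene that acts in flower development, so it can belong to either gene. On the other side of SOC1 were a region of 109 reads (89.5 to 131) from 18811657 to 18811800 at 0.0652%, and one of 247 reads (217 to 280) from 18812842 to 18812963 at 7.44e-08%. Their centres were 1174 bp apart. The outer one, the best supported of SOC1 at rank 2738, was nearer to AT2G45670 than to SOC1, and the inner one was nearest to SOC1. The SOC1 locus was thus flanked on both sides, with the fewest reads in the 1 region that was nearest to SOC1 itself.

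The 3 MADS-box repressors had regions of very different strength. SVP (AT2G22540), which with FLC represses FT and SOC1, had the region with the most reads of all 15. It lay on chromosome 2 from 9578592 to 9578733, 500 bp to 1 kb beyond the lower-numbered end, with 662 reads (613 to 714) at 9.99e-45%. This put it at rank 618 by FDR and 2111 by reads. AT2G22530 was also within 3 kb, and SVP was the nearer gene. A region inside SVP, 500 bp to 1 kb from that same end, from 9580389 to 9580502, had 175 reads (150 to 203) at 0.0299%. A region from 9584108 to 9584298, 200 to 500 bp beyond the other end, had 108 reads (88.6 to 130) at 52.1%, and NET2D (AT2G22560) was also within 3 kb of it. Along SVP, then, reads and support were both highest at the lower-numbered side and lowest at the other.

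FLC (AT5G10140), the repressor that cold winters silence, had 1 region, from 3179270 to 3179450 on chromosome 5, with 135 reads (113 to 160) at an FDR of 18.0%. The centre lay inside the gene, within 200 bp of its higher-numbered end. AT5G10150 was also within 3 kb. FLM (AT1G77080, MAF1 in the table), a relative of FLC that acts with SVP in the response to ambient temperature, had a region inside the gene, 200 to 500 bp from its higher-numbered end, on chromosome 1 from 28959745 to 28960003, with 40 reads (28.6 to 54.5) at 61.6%. This was the lowest value of the 15 regions. A second one, from 28961573 to 28961756, had 360 reads (324 to 399) at 0.0027%. It was centred in the next gene, AT1G77090, 1 to 2 kb from FLM, with AT1G77093 also within 3 kb. The supported region at FLM was therefore one that lay in another gene, and the regions centred in FLC and FLM were both above 5%.

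The 3 floral identity genes each had a region at an FDR of 5% or less. AP1 (AT1G69120), which directs floral meristem and sepal identity, had 2, both beyond the higher-numbered end of the gene on chromosome 1 and with no other protein-coding gene within 3 kb. The one next to the gene (within 200 bp) ran from 25986392 to 25986545 and had 607 reads (560 to 657) at 2.1e-25%. The other lay 2 to 3 kb away, from 25988893 to 25989055, and had 532 reads (488 to 579) at 2.25e-14%. Their centres were 2506 bp apart, their read intervals overlap, and they were ranked 1178 and 1909. AP1 was the 1 locus with more than 1 region among the 2245 best supported.

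LFY (AT5G61850), the plant-specific factor that turns on AP1, had 1 region inside the gene, on chromosome 5 from 24845424 to 24845526. It lay 1 to 2 kb from its nearer, lower-numbered end. It was the shortest of the 15, 102 bp, and held 504 reads (461 to 550) at 1.84e-08%. AT5G61865 was also within 3 kb, and LFY was the gene it lay in. FUL (AT5G60910, AGL8 in the table), which acts beside AP1 at the floral transition and later in the fruit, had 1 region within 200 bp beyond its higher-numbered end, from 24506273 to 24506419, with 246 reads (216 to 279) at 0.000822%. No other protein-coding gene was within 3 kb of it. AP1 and FUL thus both had a supported region within 200 bp beyond their higher-numbered end that no other gene shared. As strands are not given, this need not be the same end of both genes. Among their relatives, CAL had its best-supported region 1 to 2 kb away and shared with other genes, and AGL79 had none.

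Regions differed in length, so the best-supported region of each locus was also compared per 100 bp. LFY had 494 reads per 100 bp (452 to 539) and SVP 470 (434 to 507), and these intervals overlap. AP1 followed with 397 (366 to 430), below SVP beyond counting error. SOC1 had 204 (179 to 231), FLM 197 (177 to 218) and FUL 168 (148 to 191), each overlapping its neighbour in that order. The lowest were FLC with 75 (62.9 to 88.8), FT with 57.2 (46.7 to 69.4) and TSF with 49.3 (38.8 to 61.9), again with overlapping neighbours. Between neighbours in this order, intervals were apart from SVP to AP1, from AP1 to SOC1 and from FUL to FLC, and overlapped at the other steps. The median over all 15 regions was 168 reads per 100 bp, against 110 over the list. Support ran in another order, with LFY at rank 2647 by FDR, after SVP at 618 and AP1 at 1178.

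**Figure D2:**
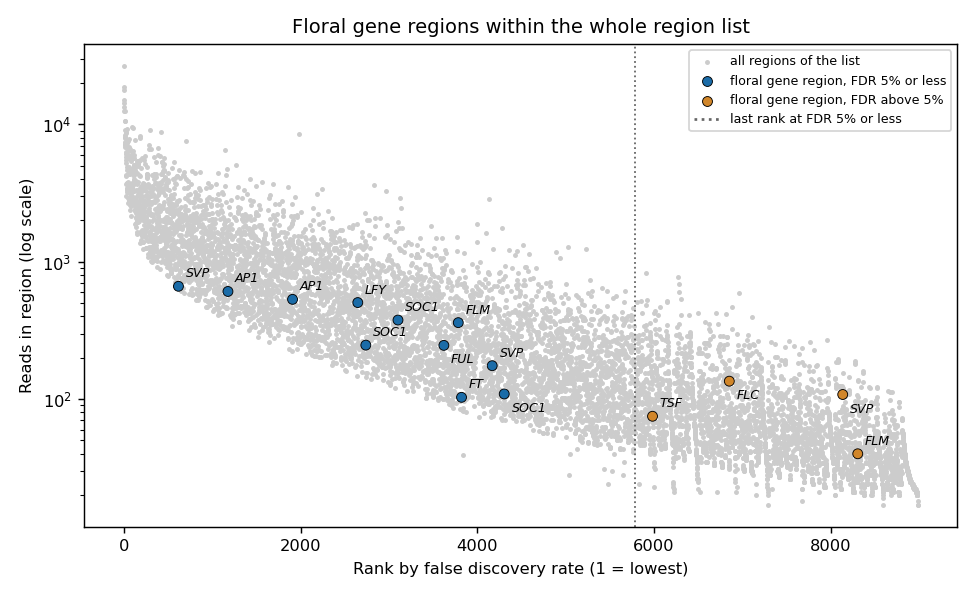
Reads in a region (log axis) against its rank by FDR for all 8983 regions (grey), with the 15 floral gene regions in blue (5% or less) and orange (above it) and labelled by locus. The dotted line marks the last rank at 5% or less, 5788. SVP at rank 618 and AP1 at 1178 and 1909 lie furthest to the left, and TSF, FLC and single regions of SVP and FLM lie to the right of the line.

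Most of the regions were supported. Of the 15, 11 (73.3%) had an FDR of 5% or less, against 64.4% of the list. The 4 above it were the single regions of TSF and FLC, the one at the higher-numbered side of SVP and the one inside FLM. By position, 5 of the 15 were centred in the gene, 6 lay outside it within 1 kb and 4 lay 1 to 3 kb away. How all regions of the list split by position was not counted. Of the 5 inside genes, those in LFY and SVP passed 5% and those in TSF, FLC and FLM did not. Of the 15, 10 were also within 3 kb of another protein-coding gene and 3 were nearest to another one. The same shares over all regions of the list were not computed, so these counts are not read as a trait of the loci. Binding beside several genes does not show which of them PRR5 regulates.

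The outer region of AP1, 2 to 3 kb away, was the furthest from its gene inside the 3 kb limit. Beyond the limit was a region 3 to 4 kb from FUL with 95 reads at 0.0409%. It was within 3 kb of COB (AT5G60920, a gene of oriented cell expansion). Another lay 3 to 4 kb from SOC1 with 65 reads at 11.7%, near AGL6. A further one 4 to 5 kb from SOC1 had 33 reads at 62.0%.

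Reads came from both strands in like numbers. The regions held 2150 forward and 2129 reverse reads in all (50.2% forward), and single regions ran from 44.4% in the weak one beside SVP to 57.3% in TSF. In none of the 15 were the strands unequal in a two-sided exact binomial test with Benjamini-Hochberg adjustment over all 8983 regions (lowest adjusted exact p = 0.606, lowest unadjusted exact p = 0.0802), where 0.935% of the list were. Unequal strands were thus rare over the whole list too. Regions with few reads had wide intervals, the widest that of the 40 reads in FLM (33.8% to 66.2%).

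**Figure D3:**
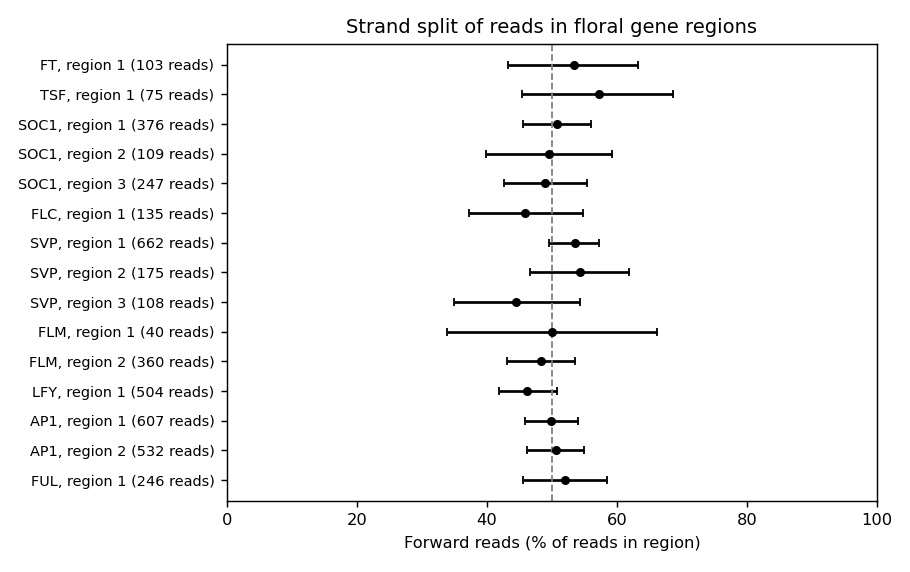
Forward reads as a percentage of the reads in each of the 15 regions, with exact 95% Clopper-Pearson intervals, and a dashed line at equal strands. All intervals include the line, and shares run from 44.4% to 57.3%.

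Among 44 other genes of the flowering pathways, 25 (56.8%) had a region within 3 kb, against 46.7% of all protein-coding genes. At an FDR of 5% or less 21 (47.7%) had one, against 34.2%. Among the 2245 best-supported regions the count was 4 (9.09%), GI, SPL15, CO and SEP3, against 15.5%. These 44 genes were chosen with earlier results of these data known, so the shares are a description with no test. Of the relatives of FT, MFT (259 reads) and ATC (115 reads) had one at 5% or less and BFT had none. In the FLC clade MAF2, MAF3 and MAF4 had one, with 174 reads at MAF2 and 327 in a region that MAF3 and MAF4 share, and MAF5 had one at 11.2%. AGL24, the closest relative of SVP, had none. In the SOC1 clade AGL19 (412 reads), AGL42 (244), AGL14 (145) and AGL71 (77) had one and AGL72 had none, and CAL, the closest relative of AP1, had one of 387 reads while AGL79 had none. These relatives had reads in the same range as the 10 loci. Except at MFT, each of their best-supported regions was also within 3 kb of another protein-coding gene.

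Outside those clades the values ran higher at a few genes. SEP3, a MADS-box partner of AP1 in flower development, had 3610 reads at an FDR of 1.15e-137%, and GI, an output gene of the clock, had 13358 reads. CO had 718 reads and SPL15, of the age pathway, 739. The best-supported region of each of these genes was also within 3 kb of another protein-coding gene. The regions of SEP3 and SPL15 lay 2 to 3 kb from the gene. Of the 10 regulators of FLC and the autonomous pathway FRI (1463 reads), VIN3 (1207) and FCA (362) had a region. This was 30%, against 46.7% of all protein-coding genes. At an FDR of 5% or less it was also 30%, near the 34.2% of all protein-coding genes. The VIN3 region lay 2 to 3 kb from VIN3 and was also within 3 kb of ZTL (AT5G57360) and AT5G57370. Those of FRI and FCA were shared with other genes too. FD, the bZIP partner of FT, had no region, and its relative FDP had one at 83.6%. Of the age genes SPL4 (141 reads at 4.62%) also had one, and of the floral organ genes AP3 (503), SEP2 (140) and SEP4 (122). SEP1 and WUS had regions above 5% alone, and PI, AG, UFO and LMI1 had none.

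The 10 loci were set beside 3 groups of genes that include regulators acting before them in the control of flowering. Over the 9 loci with a region, the best-supported region had a median of 247 reads (75 to 662) and a median rank of 3621, against 342 reads and rank 3575 over all protein-coding genes with a region. In the CDF genes, whose Dof-type proteins repress CO and FT, the median was 1290 reads (23 to 3566) over 5 genes. In CO and its COL relatives it was 2574 reads (718 to 5227) over the 5 of 6 with a region. In the AP2 and RAV type repressors of FT (TEM1, TEM2, SMZ, SNZ, TOE1, TOE2 and TOE3) it was 1072 reads (263 to 2812) over the 6 of 7. Among the 2245 best-supported regions were 2 of the 10 loci, against 4 of 5 CDF genes, 5 of 6 CO and COL genes and 6 of 7 AP2 and RAV type genes. Of all protein-coding genes it was 15.5%. The best-supported regions of TEM2, TOE2, TOE3 and COL5 lay 2 to 3 kb from the gene, each also within 3 kb of another gene. Those of CO, COL3, COL4 and TEM1 were centred in the gene. The 3 groups were chosen with their regions known, so the counts are a description with no test, and CO is also one of the 44 genes above.

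**Figure D4:**
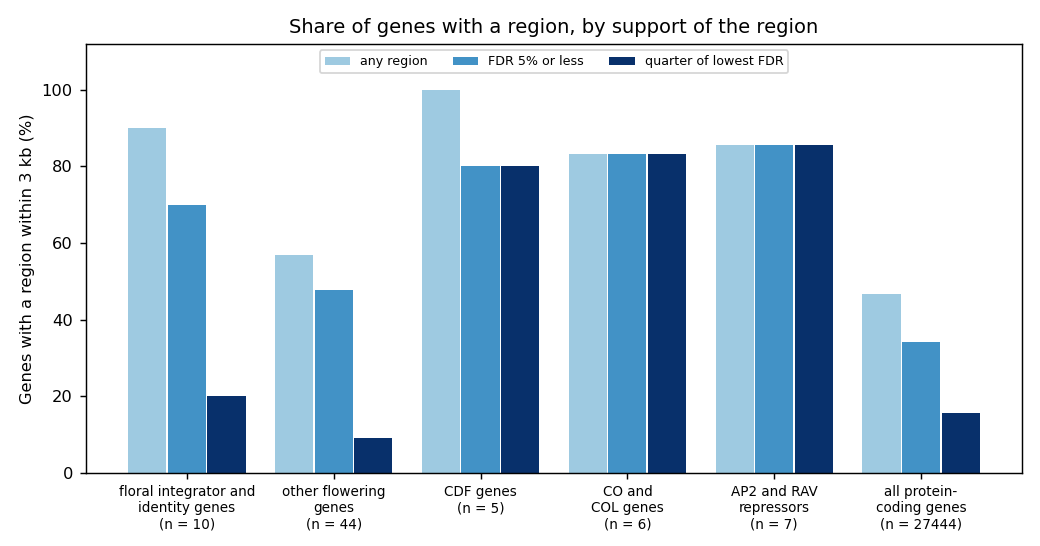
Percentage of genes with a region within 3 kb, for the 10 floral integrator and identity genes, 44 other flowering genes, 3 groups of regulators and all 27444 protein-coding genes. Bars count any region, regions at an FDR of 5% or less and the 2245 regions with the lowest rate. For the 10 loci the bars stand at 90%, 70% and 20%, and for the AP2 and RAV type repressors all 3 stand at 85.7%.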

How the data were processed

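The deposited list gave, for each region that the authors called in ChIP over input, the length in bp, whole-number counts of reads (all, forward and reverse) and a false discovery rate in percent (FDR). The deposited counts are raw, and whether they are ChIP reads alone is left unsaid by the headers. Mapping was to TAIR9, per the file headers; for the aligner, the caller and its filters, no name is given in the sources used here. Regions were linked to genes by their centre with Python 3.11.15, pandas 2.3.3 and scipy 1.17.1. Exact 95% Poisson and Clopper-Pearson intervals treat reads as independent molecules, which PCR copies are not. The best region of a locus is that with the lowest FDR, ties by reads. Alternatives were 1 and 5 kb, any overlap, stricter thresholds, merged regions, the nearest gene only and all annotated genes. Added after seeing the data were genes in the length range of the members, and 1 kb with an FDR of at most 5%. The members and lists were chosen with earlier results of these data known. Genes named were all 10 loci, genes that share their regions, and list members with a region at 5% or less, while list members without one were named after their values were seen. Sequences of regions and the motifs planned for promoters were not analysed here.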

Additional observations from a re-analysis of the deposited data

How the results depend on the processing

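Counting a region only for its nearest gene, or by any overlap in place of its centre, left 9 loci with a region. Within 5 kb it was all 10, against 59.6% of all protein-coding genes (46.7% within 3 kb). With the 2245 regions of lowest false discovery rate (FDR) the loci were 2, their regions 3, and the share of all protein-coding genes 15.5%. With any region within 1 kb the loci were 8, against 28% of all protein-coding genes. With regions at an FDR of at most 5% within 1 kb the loci were 5, against 20.1% of all protein-coding genes, a share added after seeing the data. FT and FLM had their supported region between 1 and 3 kb away, so their place in the count at 5% rests on the distance. At SOC1 the region with the most reads, 376, is not the one with the lowest FDR, 247. No paired analysis was possible because there is 1 library per group and the result comes from no test across samples.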

Other observations

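Regions with like numbers of reads differed widely in the authors' false discovery rate. The region of FT with 103 reads stood at 0.00332% and one of SOC1 with 109 reads at 0.0652%, while one of SVP with 108 reads stood at 52.1% and that of FLC with 135 reads at 18.0%. Over the whole list, 387 of the 882 regions with 95 to 140 reads (43.9%) were above 5%, so the spread was not particular to these loci. Input reads per region were not used here, and their part in the difference was not tested.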
